A study of Mus musculus and Rattus norvegicus with 79 samples.

Results

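Liver RNA of C57BL/6 mice was compared across lights off in animals that had not been fed. The comparison set 3 unfed livers taken at ZT13 against 3 unfed livers taken at ZT10, which are 6 of the 79 samples of the series. They were chosen by their labels alone, as the unfed livers on either side of the change from light to dark. ZT (zeitgeber time) counts hours since lights on. The mice lived in 12 h of light and 12 h of darkness and were trained to eat at night only, so that ZT13 lies 1 h into the dark phase and ZT10 lies 2 h before it. Both groups carried no transgene and received no virus, and their libraries were made from polyadenylated RNA.

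Other livers were used beside them. Fed C57BL/6 livers at ZT13, and unfed livers at ZT14, ZT18 and ZT22, had 3 libraries per group and the same preparation. Livers of Nr3c1fl/fl mice, in which the gene of the glucocorticoid receptor (GR) is flanked by loxP sites, came from unfed animals at ZT12 and ZT10, with 3 libraries per group, 10 days after AAV-tbg-CRE or AAV-tbg-GFP. The tbg promoter is active in hepatocytes, so the recombinase is directed to these cells and other liver cells keep the receptor, and the GFP virus is its control. These libraries were made from total RNA depleted of ribosomal RNA. Where the replicates of a group came from is not stated beyond their numbers, so p-values measure the spread between these libraries. The hour of the day and the hours since the last meal change together between ZT10 and ZT13 and cannot be told apart.

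The mammalian clock is a feedback loop in which CLOCK and BMAL1 (the product of Arntl) drive the Period and Cryptochrome genes and Nr1d1, whose products repress the activators in turn. In nocturnal rodents corticosterone rises towards dusk, binds GR in the cytoplasm of hepatocytes and sends it to the nucleus, where it activates genes such as Fkbp5 and Tat. Body temperature also rises at the start of the active phase, and cytosolic heat shock chaperones are known to follow it in mouse liver.

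The 6 libraries held 39.66 to 55.63 M counts. Levels are counts-per-million values (CPM) over the tested genes after scaling, and differences are log2 fold changes of ZT13 over ZT10 with their standard error. Of 14744 genes tested, 2781 differed at an adjusted p under 0.05 (18.9%), by edgeR's quasi-likelihood test with Benjamini-Hochberg adjustment over all genes, the source of every adjusted p given here. At ZT13, 1436 genes were higher (9.74%) and 1345 were lower (9.12%). A change of at least 2-fold was reached by 236 of the higher genes (1.6% of those tested) and 303 of the lower genes (2.06%). Without ZT10 replicate 2, the counts were 952 higher and 850 lower. With upper-quartile scaling 43.1% of the calls were higher, against 51.6% with the scaling used here, as the median over all genes moved to -0.06, against -0.02. A row for ribosomal RNA precursor held 2.053% of the counts of ZT13 replicate 3 and 1.74% of those of ZT10 replicate 1, against 0.096 to 0.284% in the other libraries, which places an outlying library in each group.

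**Figure D1:**
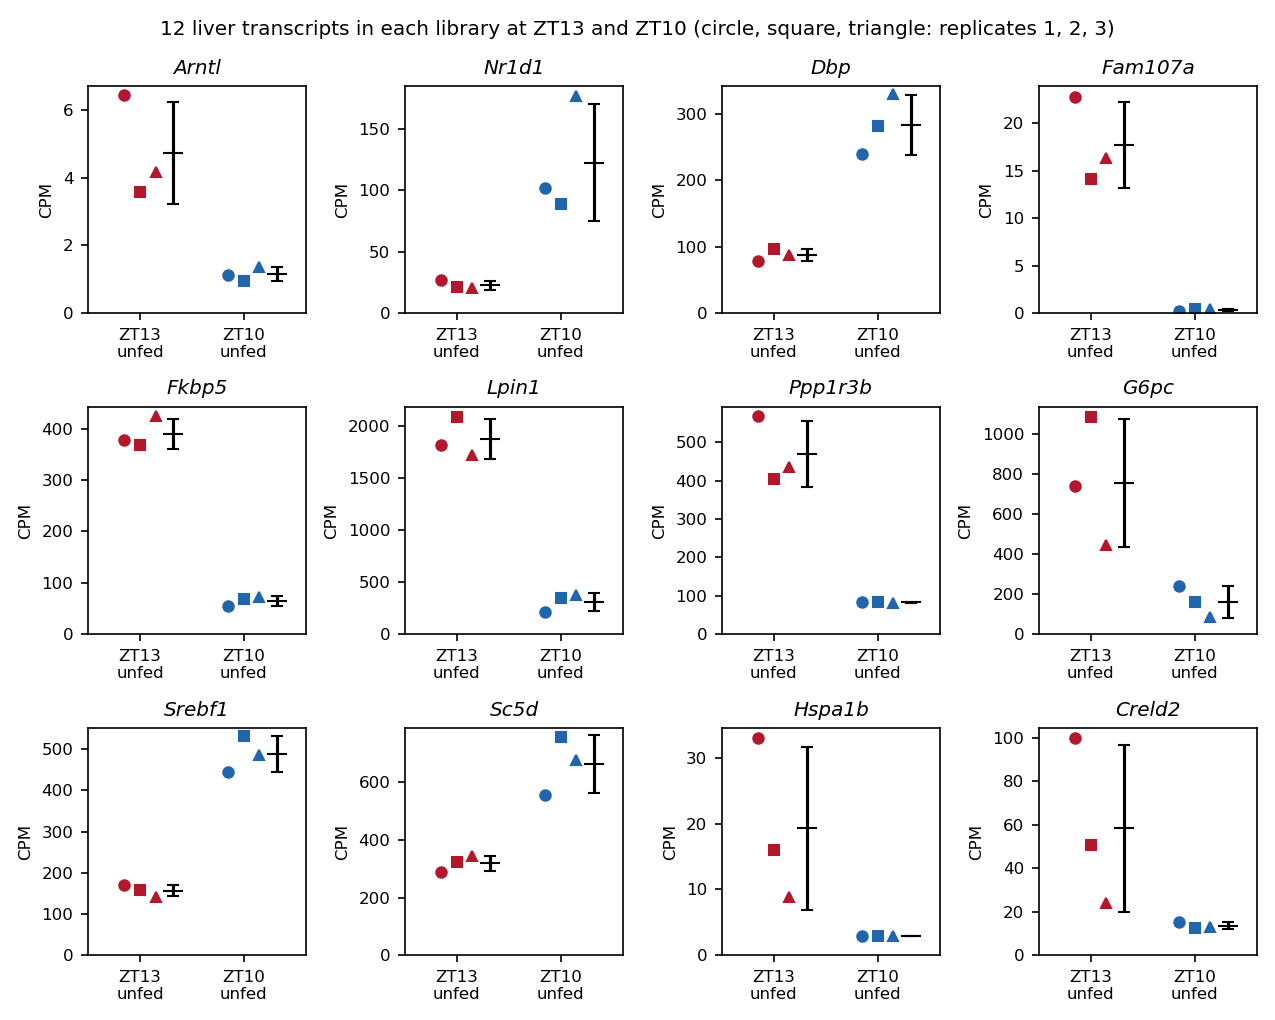
CPM of 12 genes in each library, with the ZT13 livers left of the ZT10 livers; circles, squares and triangles are replicates 1, 2 and 3, and bars are the mean and SD of 3 libraries. In each panel the 3 ZT13 libraries lie on the same side of all 3 ZT10 libraries. Hspa1b and Creld2 spread most at ZT13, with replicate 1 highest at 33.1 CPM and 100 CPM.

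The clock had moved in both limbs between ZT10 and ZT13. Arntl, Cry1, Clock and Per2 were higher at ZT13, and Nr1d1, Nr1d2, Bhlhe41 and Per3 were among the genes that were lower. Thus 4 of 18 tested core clock genes rose and 5 fell, against 9.74% and 9.12% of all genes, and the list's median log2 fold change was 0.01. Without ZT10 replicate 2, ZT13 replicate 1 or ZT13 replicate 2, the list held 3 lower calls in each case.

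Arntl encodes the activator BMAL1. It had 6.44, 3.57 and 4.18 CPM in the ZT13 livers, against 1.13, 0.941 and 1.36 CPM in the ZT10 livers. The log2 fold change was 2.03 ± 0.24 (edgeR adjusted p = 1.64e-06). All 3 ZT13 libraries lay above every ZT10 library. Cry1, a repressor of the loop, had 36.7, 28.1 and 26.3 CPM at ZT13, against 13.8, 11.7 and 6.99 CPM at ZT10, a log2 fold change of 1.49 ± 0.18 (edgeR adjusted p = 2.25e-06). The groups again did not overlap.

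Nr1d1 encodes REV-ERBα, which represses Arntl. It had 26.8, 20.8 and 20.5 CPM in the ZT13 livers, against 102, 88.7 and 177 CPM in the ZT10 livers, and its log2 fold change was -2.43 ± 0.22 (edgeR adjusted p = 4.66e-08). Every ZT13 library was below the lowest ZT10 library. Bhlhe41 (DEC2), another repressor, had 2.18, 1.77 and 2.14 CPM at ZT13, against 9.64, 8.4 and 18.3 CPM at ZT10, and fell by 2.58 ± 0.35 on the log2 scale (edgeR adjusted p = 9.55e-06). ZT10 replicate 3 was the highest library for both repressors.

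The Period genes differed among themselves. Per2 had 108, 78.9 and 77.3 CPM at ZT13, against 61.3, 73.5 and 59.7 CPM at ZT10 (log2 fold change 0.44 ± 0.15, edgeR adjusted p = 0.0477). The call on Per2 was lost under 8 of the alternative settings, with adjusted p between 0.0523 and 0.284. Per1 had 112, 89.1 and 63.3 CPM at ZT13, against 55.4, 79.2 and 56.6 CPM at ZT10, and did not pass the test (log2 fold change 0.47 ± 0.33, edgeR adjusted p = 0.356). Its libraries overlapped. Per3 fell, with 58.1, 64 and 84.1 CPM at ZT13, against 139, 181 and 137 CPM at ZT10 (log2 fold change -1.15 ± 0.16).

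A pair of promoter stretches is shown for clock genes that moved in opposite directions and hold the same E-box. The E-box CACGTG, the site that CLOCK and BMAL1 bind, was searched on both strands in the 250 bases before each gene's start in RefSeq's windows (GRCm38.p6). Among the core clock genes 4 of 20 windows held it (20%), against 7.91% of the 14745 windows of tested genes. The stretches of 90 bases, with the E-box in capitals, are Cry1 at chr10:85185067-85185156 on the minus strand and Bhlhe41 at chr6:145865526-145865615 on the minus strand.
Cry1: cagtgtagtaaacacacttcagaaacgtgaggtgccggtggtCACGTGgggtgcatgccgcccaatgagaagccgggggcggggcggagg
Bhlhe41: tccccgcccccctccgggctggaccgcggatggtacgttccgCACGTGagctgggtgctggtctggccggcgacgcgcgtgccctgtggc

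Among the clock's output factors, 8 of 17 genes rose and 4 fell (background 9.74% and 9.12%). Dbp, an activator driven directly by CLOCK and BMAL1, had 78.1, 96.7 and 88.1 CPM at ZT13, against 240, 282 and 330 CPM at ZT10 (log2 fold change -1.70 ± 0.21, edgeR adjusted p = 4.16e-06). Its relatives differed among themselves, since Tef fell by 0.50 ± 0.12 on the log2 scale while Hlf stayed at 92.3 to 103 CPM at ZT13, against 87.3 to 107 CPM at ZT10. Tfrc, the transferrin receptor, had 55.9, 45.7 and 73.3 CPM at ZT13, against 19.6, 12.9 and 13.3 CPM at ZT10 (log2 fold change 1.94 ± 0.24). Nampt, the rate-limiting enzyme of NAD salvage, rose by 0.96 ± 0.12 on the log2 scale. Neither Tfrc nor Nampt had overlapping groups.

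Genes induced by glucocorticoids rose together. Of 25 tested GR targets 19 were higher at ZT13 (background 9.74%) and 1 was lower, and the median log2 fold change was 1.55, against -0.02 over all genes. In 22 of the 25 every ZT13 library lay above every ZT10 library, an arrangement that 16.4% of all genes showed. The summed level of the 25 genes was 15888 to 18097 CPM in the ZT13 livers and 5167 to 8178 CPM in the ZT10 livers. Without any of the 6 libraries in turn, 16 to 20 genes of the list were called higher. The list came from general knowledge of GR, with earlier results of these data in view.

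Fam107a, a stress- and glucocorticoid-induced actin-binding protein, had the largest log2 fold change of the genes named by size. It had 22.8, 14.1 and 16.3 CPM in the ZT13 livers, against 0.175, 0.376 and 0.389 CPM in the ZT10 livers. The log2 fold change was 5.75 ± 0.65 (edgeR adjusted p = 9.89e-07), a value that rests on low ZT10 levels. Cdkn1a, the cell cycle inhibitor p21, had 15.1, 11.6 and 13.6 CPM at ZT13, against 0.698, 0.815 and 0.971 CPM at ZT10, a log2 fold change of 3.99 ± 0.66 (edgeR adjusted p = 1.14e-04). Both genes were barely detected at ZT10 and were present in all 3 ZT13 libraries.

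Targets that act in signalling rose as well. Fkbp5, a co-chaperone that lowers the receptor's affinity for hormone, had 379, 368 and 424 CPM at ZT13, against 54.1, 67.7 and 73 CPM at ZT10. It rose by 2.59 ± 0.27 on the log2 scale (edgeR adjusted p = 3.42e-07). Tsc22d3 (GILZ), which carries anti-inflammatory effects of glucocorticoids, had 317, 276 and 247 CPM at ZT13, against 82.5, 95.7 and 59.7 CPM at ZT10 (log2 fold change 1.82 ± 0.25, edgeR adjusted p = 1.19e-05). Dusp1, a phosphatase of MAP kinases, rose by 1.55 ± 0.25 on the log2 scale. In none of the 3 did the groups overlap.

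Metabolic targets of the receptor spanned a wide range of levels. Lpin1, a phosphatidate phosphatase and transcriptional coactivator, had 1814, 2088 and 1723 CPM at ZT13, against 209, 345 and 376 CPM at ZT10 (log2 fold change 2.60 ± 0.47, edgeR adjusted p = 3.30e-04). Ddit4 (REDD1), an inhibitor of mTORC1, had 58.1, 57 and 31 CPM at ZT13, against 4.67, 10.5 and 4.34 CPM at ZT10 (log2 fold change 2.89 ± 0.46, edgeR adjusted p = 7.99e-05). ZT13 replicate 3 was the lowest of its group for Ddit4 and still above the highest ZT10 library. Mt2, a metal-binding protein with a near-identical relative in Mt1, had 67.4, 58.8 and 130 CPM at ZT13, against 12.8, 39.6 and 8.84 CPM at ZT10 (log2 fold change 2.06 ± 0.49, edgeR adjusted p = 0.00419). Without both libraries of high ribosomal RNA share, Mt2 had a log2 fold change of 1.38 and an edgeR adjusted p of 0.108.

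The targets that did not rise were few. Gadd45a, a growth arrest gene, had 1.81, 1.73 and 2.09 CPM at ZT13, against 7.86, 9.59 and 11.8 CPM at ZT10 (log2 fold change -2.38 ± 0.27, edgeR adjusted p = 1.18e-06). Igfbp1, a secreted binding protein of insulin-like growth factors, had 85.7, 155 and 66.2 CPM at ZT13, against 45.6, 75.9 and 34.8 CPM at ZT10, and its groups overlapped. Its log2 fold change was 0.97 ± 0.36 (edgeR adjusted p = 0.0628) and passed the threshold in 4 alternative settings. Klf9, Nfkbia, Pdk4 and Per1 did not pass the test either, with log2 fold changes of 0.27, 0.37, 0.70 and 0.47.

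The receptor's own message showed no difference beyond the spread. Nr3c1, which encodes GR, had 94.6, 114 and 115 CPM at ZT13, against 107, 104 and 105 CPM at ZT10 (log2 fold change 0.03 ± 0.09, edgeR adjusted p = 0.873), and its sign changed under 4 settings. Nr3c2, the mineralocorticoid receptor, had 9.88, 14.3 and 19.1 CPM at ZT13, against 32.1, 28.5 and 31.5 CPM at ZT10. It fell by 1.09 ± 0.16 on the log2 scale (edgeR adjusted p = 3.87e-05), and Serpina6, the corticosteroid-binding globulin, fell by 0.47 ± 0.13 (edgeR adjusted p = 0.0111). No other gene among the 8 of receptor and steroid handling passed the test (background 9.74% higher and 9.12% lower). With 8 genes, these counts are too few to set the list apart from all genes. Without ZT10 replicate 2 only Nr3c2 was called among the 8.

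The next 3 stretches come from promoters of genes higher at ZT13 and are shown because they match the palindrome known to bind GR. The response element was written as GNACA, any 3 bases and TGTNC, and searched on both strands. It stood in 4 of 35 windows of GR targets (11.4%), all of Fam107a, Mt1 or Sgk1, against 0.359% of all windows. A match of letters does not show binding, and none of the authors' GR peaks at ZT10, given below, lay within 25 kb of Fam107a. The element is in capitals. The stretches are Fam107a at chr14:8309847-8309936 on the minus strand, Sgk1 at chr10:21993663-21993752 on the plus strand and Mt1 at chr8:94178956-94179045 on the plus strand. Sgk1 and Mt1 were picked after their values were seen, and rose by 0.71 ± 0.15 and 1.32 ± 0.41 on the log2 scale.
Fam107a: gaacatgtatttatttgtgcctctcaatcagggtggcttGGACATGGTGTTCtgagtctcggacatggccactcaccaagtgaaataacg
Sgk1: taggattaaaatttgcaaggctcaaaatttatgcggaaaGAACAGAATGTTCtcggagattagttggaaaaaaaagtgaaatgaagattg
Mt1: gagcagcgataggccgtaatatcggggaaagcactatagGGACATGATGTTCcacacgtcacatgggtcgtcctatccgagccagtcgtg

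**Figure D2:**
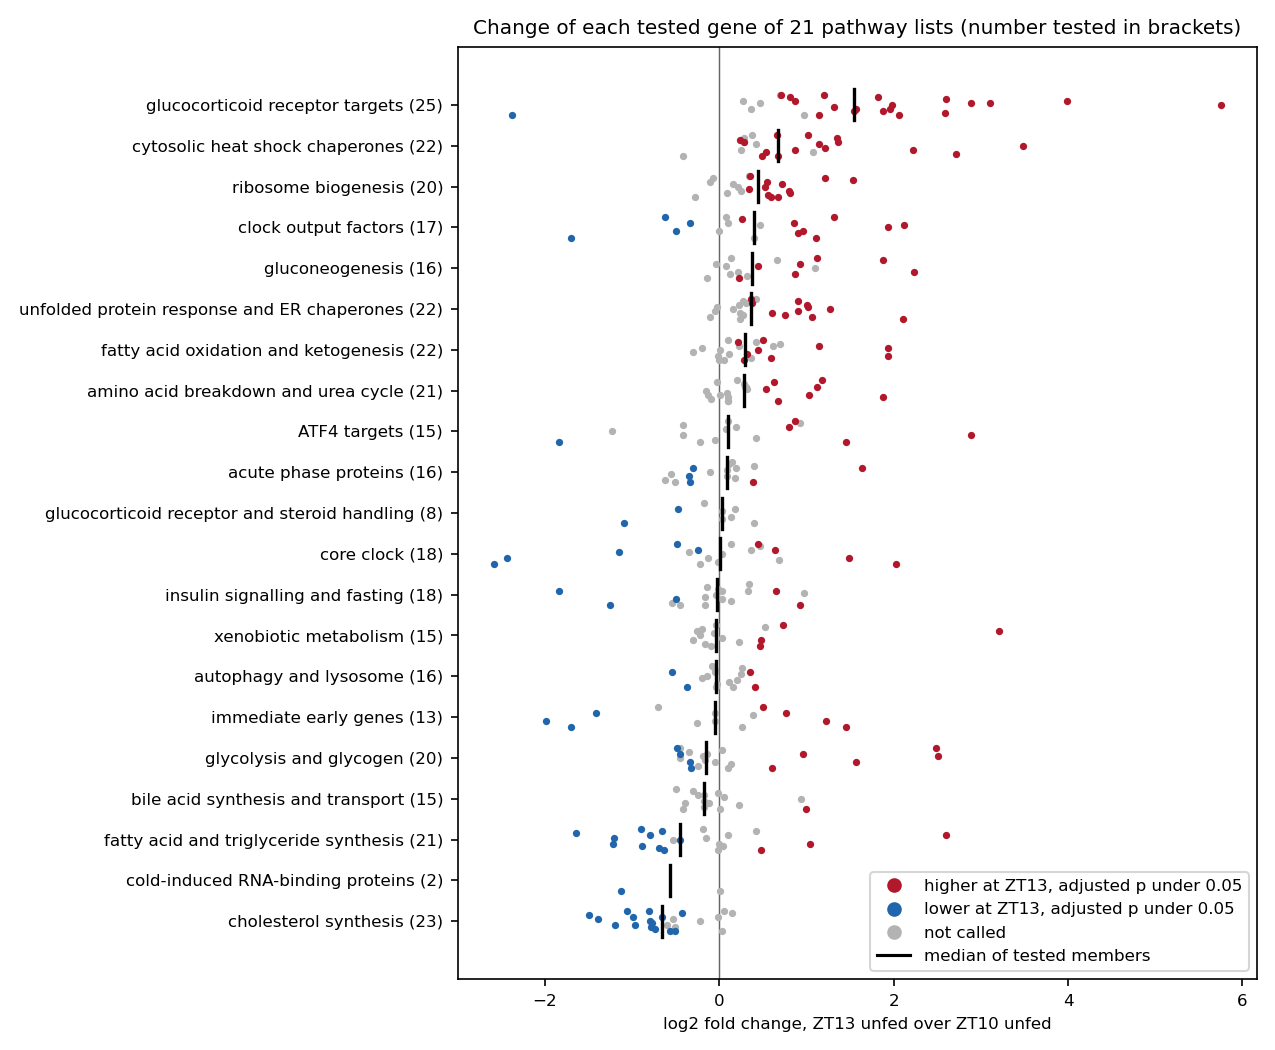
Log2 fold change of ZT13 over ZT10 for each tested gene of 21 pathway lists; red points were higher and blue points lower at an adjusted p under 0.05, grey points did not pass, and the black line is the list's median. Points of the GR targets and heat shock chaperones lie mostly right of 0, with medians of 1.55 and 0.67, and those of cholesterol synthesis mostly left, with a median of -0.66.

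Glycogen metabolism held the gene with the smallest p of the whole comparison. Ppp1r3b, the liver subunit that targets protein phosphatase 1 to glycogen and activates glycogen synthase, had 568, 404 and 436 CPM at ZT13, against 84.1, 84.1 and 81.8 CPM at ZT10. It rose by 2.49 ± 0.15 on the log2 scale (edgeR adjusted p = 6.48e-11). Its relative Ppp1r3c had 179, 179 and 188 CPM at ZT13, against 29.4, 28.3 and 38.2 CPM at ZT10 (log2 fold change 2.51 ± 0.26, edgeR adjusted p = 3.42e-07). The transcripts of both subunits were therefore several times more abundant in every ZT13 library, and protein was not measured.

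Glycogen synthase itself showed a small shift. Gys2, its liver form, fell by 0.33 ± 0.09 on the log2 scale (edgeR adjusted p = 0.0139). The kinase-phosphatases that set fructose 2,6-bisphosphate rose in 3 cases, Pfkfb1, Pfkfb2 and Pfkfb3, and Pfkfb2 had 167, 156 and 170 CPM at ZT13, against 81.5, 94.2 and 78.2 CPM at ZT10. In all, 5 of 20 genes of glycolysis and glycogen rose and 4 fell (background 9.74% and 9.12%), with a median of -0.15. The lower calls numbered 1 without ZT10 replicate 2 or ZT13 replicate 1, and 2 without ZT10 replicate 3 or ZT13 replicate 2. Those reduced counts are near the share of all genes that were lower.

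Genes of glucose production rose or did not pass the test. Of 16 gluconeogenic genes 7 were higher and none lower (background 9.74% and 9.12%), with a median log2 fold change of 0.38. G6pc, the phosphatase that releases glucose, had 738, 1084 and 443 CPM at ZT13, against 242, 158 and 84 CPM at ZT10 (log2 fold change 2.23 ± 0.32, edgeR adjusted p = 2.57e-05). Pck1, the cytosolic carboxykinase, had 6367, 6125 and 5477 CPM at ZT13, against 3825, 3831 and 2164 CPM at ZT10 (log2 fold change 0.87 ± 0.28, edgeR adjusted p = 0.0318). Neither gene's groups overlapped, but the call on Pck1 was lost without ZT10 replicate 3, ZT13 replicate 1 or ZT13 replicate 2 (adjusted p 0.0715 to 0.169). The list's higher calls numbered 4 without any of those 3 libraries.

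Amino acid breakdown supplies carbon to that pathway. Tat, tyrosine aminotransferase, had 5372, 5474 and 4278 CPM at ZT13, against 1597, 1556 and 951 CPM at ZT10 (log2 fold change 1.88 ± 0.24, edgeR adjusted p = 5.88e-06). Got1, cytosolic aspartate aminotransferase, had 736, 811 and 650 CPM at ZT13, against 308, 374 and 327 CPM at ZT10, and Sdsl, a serine dehydratase relative, rose by 1.18 ± 0.22 on the log2 scale. These were among 7 of 21 genes of amino acid breakdown and the urea cycle that rose, while none fell (background 9.74% and 9.12%). Tat and Got1 also count among the gluconeogenic genes that rose, and Tat among the GR targets. Cps1, the entry enzyme of the urea cycle, had 6249 to 7551 CPM at ZT13, against 5176 to 5899 CPM at ZT10, and did not pass the test (edgeR adjusted p = 0.0932).

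Fatty acid oxidation showed smaller shifts. Of 22 genes 9 rose and none fell (background 9.74% and 9.12%), with a median of 0.30. The calls numbered only 5 without ZT10 replicate 1 or ZT10 replicate 3, and 4 without both libraries of high ribosomal RNA share. Cyp4a10, a fatty acid omega-hydroxylase with a close relative in Cyp4a14, had 636, 502 and 686 CPM at ZT13, against 222, 162 and 92.6 CPM at ZT10 (log2 fold change 1.94 ± 0.37, edgeR adjusted p = 4.92e-04). The mitochondrial importers Cpt2 and Slc25a20 rose by 0.50 ± 0.10 and 0.59 ± 0.11 on the log2 scale. Ppara, a lipid-sensing receptor that drives many of these genes, had 623 to 693 CPM at ZT13, against 623 to 710 CPM at ZT10.

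Lipid synthesis went the other way. Of 21 tested genes that make fatty acids and triglycerides 10 fell (background 9.12%) and 3 rose, with a median of -0.45. Srebf1, the transcription factor that drives lipogenic genes, had 170, 158 and 142 CPM at ZT13, against 445, 532 and 485 CPM at ZT10 (log2 fold change -1.64 ± 0.21, edgeR adjusted p = 6.22e-06). Fasn, fatty acid synthase, had 374, 302 and 313 CPM at ZT13, against 610, 880 and 798 CPM at ZT10 (log2 fold change -1.21 ± 0.20, edgeR adjusted p = 1.11e-04). Acss2, which makes acetyl-CoA from acetate, had 172, 191 and 189 CPM at ZT13, against 349, 516 and 419 CPM at ZT10. In all 3 genes the highest ZT13 library was below the lowest ZT10 library. The exceptions were Lpin1, Agpat2 and Thrsp, and Thrsp, a lipogenic regulator, rose by 1.04 ± 0.29 on the log2 scale.

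Cholesterol synthesis fell as a list, with 15 of 23 genes lower and none higher (background 9.12% and 9.74%), and a median log2 fold change of -0.66. In 12 of them all ZT13 libraries lay below all ZT10 libraries, which 17.6% of all genes did. Sc5d, a late desaturase of the pathway, had 290, 322 and 343 CPM at ZT13, against 558, 758 and 679 CPM at ZT10 (log2 fold change -1.06 ± 0.12, edgeR adjusted p = 9.05e-07). Pmvk and Mvd, enzymes of the mevalonate branch, had 23.1 to 24.3 and 8.45 to 11 CPM at ZT13, against 38.4 to 69.3 and 17 to 30.8 CPM at ZT10. Their log2 fold changes were -1.19 ± 0.15 and -1.49 ± 0.21 (edgeR adjusted p = 3.12e-06 and 1.70e-05).

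Srebf2, the regulator of the sterol branch, had 91.2, 79 and 74.3 CPM at ZT13, against 60, 84 and 76.4 CPM at ZT10, and did not pass the test (log2 fold change 0.15 ± 0.13, edgeR adjusted p = 0.479). Its groups overlapped. ZT10 replicate 2 was the highest library for Pmvk. The list's lower calls numbered 8 without ZT10 replicate 2 and 9 without ZT10 replicate 3.

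The CCAAT box, bound by the factor NF-Y beside the sterol regulators, is shown for 3 cholesterol genes that fell. Searched as CCAAT on both strands, it was held by 16 of 19 windows of the list (84.2%), against 35% of all windows. In windows of the genes called lower it stood in 11 of 14 (78.6%). Ebp, Hsd17b7, Idi1, Srebf2 and Tm7sf2, which did not pass the test, hold it too. The sterol regulatory element, written as TCACNCCAC, stood in 1 of 19 windows of the list (5.26%), that of Hmgcs1, against 1.09% of all windows. Capitals mark the box in either orientation. The stretches are Sc5d at chr9:42264301-42264390 on the minus strand, Pmvk at chr3:89454362-89454451 on the plus strand and Mvd at chr8:122443423-122443512 on the minus strand.
Sc5d: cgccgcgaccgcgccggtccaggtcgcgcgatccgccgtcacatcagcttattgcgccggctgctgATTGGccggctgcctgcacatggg
Pmvk: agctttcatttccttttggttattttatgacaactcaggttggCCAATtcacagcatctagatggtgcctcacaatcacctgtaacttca
Mvd: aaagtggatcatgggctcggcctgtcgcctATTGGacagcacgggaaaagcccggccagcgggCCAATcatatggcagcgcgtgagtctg

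Of 22 tested cytosolic chaperones 15 were higher at ZT13 and none lower (background 9.74% and 9.12%), with a median of 0.67. In 19 every ZT13 library lay above every ZT10 library, as in 16.4% of all genes. Their summed level was 2755 to 3836 CPM in the ZT13 livers and 2018 to 2070 CPM in the ZT10 livers. All 15 genes called higher had their highest level in ZT13 replicate 1, a place that 41.2% of all genes called higher gave to that library. Without ZT13 replicate 1 the list held 12 higher genes and a median of 0.55.

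Hspa1b, an inducible HSP70 with a near-identical copy in Hspa1a, had 33.1, 16 and 8.78 CPM at ZT13, against 2.92, 2.92 and 2.91 CPM at ZT10 (log2 fold change 2.72 ± 0.45, edgeR adjusted p = 1.11e-04). Its ZT13 libraries were far apart from each other, yet all were above the ZT10 group. Hsph1, an HSP110 exchange factor, had 135, 82.7 and 65.5 CPM at ZT13, against 22.7, 16.1 and 22.2 CPM at ZT10 (log2 fold change 2.22 ± 0.25, edgeR adjusted p = 1.01e-06). Dnaja1, an HSP40 co-chaperone, had 261, 227 and 239 CPM at ZT13, against 127, 116 and 115 CPM at ZT10, and its libraries lay much closer together (log2 fold change 1.02 ± 0.11, edgeR adjusted p = 4.22e-07).

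Abundant members differed among themselves. Hspa8, the constitutive HSC70, had 778, 585 and 497 CPM at ZT13, against 285, 266 and 252 CPM at ZT10 (log2 fold change 1.21 ± 0.18), and Hsp90aa1, the inducible HSP90, rose by 1.35 ± 0.19 on the log2 scale. Hsp90ab1, the constitutive HSP90, had 674 to 1001 CPM at ZT13, against 626 to 656 CPM at ZT10, and did not pass the test (edgeR adjusted p = 0.0615). The cold-induced Cirbp, read here from a non-coding transcript of the gene, had 12.1, 15.2 and 14.4 CPM at ZT13, against 24.2, 36.8 and 30.4 CPM at ZT10 (log2 fold change -1.13 ± 0.17, edgeR adjusted p = 3.56e-05). Rbm3, the other cold-induced RNA-binding protein measured, had 30.9 to 33.2 CPM at ZT13, against 28.6 to 36.9 CPM at ZT10.

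Promoters of 3 chaperone genes that rose are shown with the element that heat shock factors bind. A heat shock element of 2 units was written GAANNTTC or TTCNNGAA and searched on both strands. It stood in 10 of 23 windows of the list (43.5%), against 10.6% of all windows, and is in capitals. In windows of the genes called higher it stood in 7 of 19 (36.8%), since Fkbp4, Hspb1 and Hspe1, which did not pass the test, hold it too. The stretches are Dnaja1 at chr4:40722303-40722392 on the plus strand, Hsph1 at chr5:149636321-149636410 on the minus strand and Hspa1b at chr17:34959294-34959383 on the minus strand.
Dnaja1: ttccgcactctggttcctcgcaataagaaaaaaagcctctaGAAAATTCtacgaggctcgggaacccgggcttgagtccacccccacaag
Hsph1: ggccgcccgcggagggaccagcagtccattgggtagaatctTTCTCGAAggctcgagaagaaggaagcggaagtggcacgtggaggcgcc
Hspa1b: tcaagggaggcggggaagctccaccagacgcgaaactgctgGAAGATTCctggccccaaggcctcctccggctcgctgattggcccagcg

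Chaperones of the endoplasmic reticulum (ER), which the unfolded protein response induces, rose in part. Of 22 genes 11 were higher and none lower (background 9.74% and 9.12%), with a median of 0.37. In ZT13 replicate 1, 10 of the 11 were highest. Creld2, an ER protein induced by stress, had 100, 50.7 and 23.9 CPM at ZT13, against 15.2, 12.3 and 12.9 CPM at ZT10 (log2 fold change 2.11 ± 0.36, edgeR adjusted p = 1.76e-04). The 3 ZT13 livers thus differed from each other by more than ZT13 replicate 3 differed from the ZT10 group. Dnajc3, an ER co-chaperone, had 329, 300 and 319 CPM at ZT13, against 215, 195 and 211 CPM at ZT10 (log2 fold change 0.61 ± 0.10). Hspa5, the main ER chaperone BiP, rose by 0.90 ± 0.19, while Hsp90b1 and the regulator Xbp1 did not pass the test (log2 fold changes 0.27 and -0.05). Without ZT13 replicate 1, or without ZT10 replicate 2, 8 genes of the list were called higher.

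The ER stress element was written as CCAAT, any 9 bases and CCACG, and searched on both strands, and it contains the CCAAT box. It was held by 8 of 18 windows of the list (44.4%), against 0.142% of all windows. Of those 8 genes, Creld2, Dnajc3, Hspa5 and Syvn1 were higher at ZT13, and Calr, Canx, Hsp90b1 and Pdia6 did not pass the test. The CCAAT box alone stood in 16 of 18 windows of this list (88.9%), against 35% of all windows. Capitals mark the element, reversed in Creld2. The stretches are Dnajc3 at chr14:118937791-118937880 on the plus strand, Creld2 at chr15:88819484-88819573 on the plus strand and Hspa5 at chr2:34771989-34772078 on the plus strand, the last picked after its value was seen.
Dnajc3: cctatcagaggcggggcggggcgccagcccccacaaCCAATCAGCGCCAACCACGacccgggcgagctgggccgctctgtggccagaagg
Creld2: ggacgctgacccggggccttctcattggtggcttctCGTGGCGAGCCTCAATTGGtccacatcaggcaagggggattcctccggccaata
Hspa5: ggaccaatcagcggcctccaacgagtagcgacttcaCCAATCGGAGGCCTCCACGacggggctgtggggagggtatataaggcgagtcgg

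Ribosome biogenesis factors rose in 12 of 20 cases and fell in none (background 9.74% and 9.12%), with a median of 0.44. The higher calls numbered 8 without ZT10 replicate 1, ZT10 replicate 2, ZT13 replicate 1 or ZT13 replicate 2. Rrp12, which helps export and mature ribosomal subunits, had 24.9, 23.4 and 16.3 CPM at ZT13, against 8.03, 6.4 and 8 CPM at ZT10 (log2 fold change 1.53 ± 0.20, edgeR adjusted p = 7.57e-06). Nop58, a core protein of box C/D small nucleolar particles, had 28.6, 31.8 and 28.7 CPM at ZT13, against 12.3, 12.2 and 14 CPM at ZT10 (log2 fold change 1.21 ± 0.19). Both had separate groups. The abundant nucleolar proteins Ncl and Npm1 did not pass the test, with 198 to 230 and 86.1 to 102 CPM at ZT13, against 173 to 200 and 79.7 to 87.9 CPM at ZT10.

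Among 18 genes of insulin signalling and fasting 2 rose and 3 fell, and among 15 targets of ATF4, the factor of the integrated stress response, 4 rose and 1 fell. Shares of 9.74% higher and 9.12% lower over all genes stand beside these counts, and 2 of 18 and 1 of 15 are near them. Trib3, a pseudokinase that inhibits AKT, had 6.12, 6.24 and 5.39 CPM at ZT13, against 20.2, 24 and 19.5 CPM at ZT10 (log2 fold change -1.84 ± 0.29, edgeR adjusted p = 7.01e-05). Foxo1 and Pik3r1, a transcription factor and a kinase subunit of the insulin pathway, rose by 0.93 ± 0.16 and 0.65 ± 0.10 on the log2 scale. Asns, a classic ATF4 target, had 3.13, 17.5 and 3.58 CPM at ZT13, against 6.94, 12.1 and 9.46 CPM at ZT10. Without ZT10 replicate 2 or ZT13 replicate 1, 2 ATF4 targets were called higher, and without ZT13 replicate 1 or ZT13 replicate 2, 2 were called lower.

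Of 13 immediate early genes 4 were higher and 3 lower (background 9.74% and 9.12%), the lower ones being Egr1, Junb and Myc. Jun rose by 1.22 ± 0.28 and Junb fell by 1.41 ± 0.20 on the log2 scale. Myc had 3.63, 5.86 and 2.88 CPM at ZT13, against 3.84, 39.9 and 5.05 CPM at ZT10, so ZT10 replicate 2 stood apart from all other libraries. The groups of Myc overlapped although it was called. The higher calls numbered 2 without ZT10 replicate 2, without ZT13 replicate 1 or without both libraries of high ribosomal RNA share, and the lower calls numbered 1 without ZT13 replicate 1 or ZT13 replicate 3.

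The remaining lists held few calls, at shares to be read against 9.74% of all genes higher and 9.12% lower. Xenobiotic genes rose in 4 of 15 cases (2 without ZT10 replicate 2) and bile acid genes in 1 of 15, Nr0b2, a call lost without ZT10 replicate 2, ZT13 replicate 2 or ZT13 replicate 3. Cyp7a1, which opens the main route to bile acids, had 248 to 330 CPM at ZT13, against 315 to 403 CPM at ZT10, and the groups overlapped. Of 16 genes of autophagy and the lysosome 2 were higher and 2 lower, near those background shares. Their higher calls numbered 0 without ZT10 replicate 1, ZT10 replicate 3 or ZT13 replicate 2, and 1 without ZT13 replicate 3, and their lower calls numbered 1 without any library but ZT13 replicate 2. Acute phase proteins rose in 2 and fell in 3 of 16 cases, all 3 of them fibrinogen chains. The lower calls numbered 0 without ZT10 replicate 2 and 1 without ZT10 replicate 3, and the higher calls numbered 1 without ZT10 replicate 3 or ZT13 replicate 3.

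Some of the largest changes lay outside the clock and the GR targets. Plin4, a coat protein of lipid droplets, had 49.8, 44.9 and 36.2 CPM at ZT13, against 3.97, 5.58 and 4.66 CPM at ZT10 (log2 fold change 3.19 ± 0.31, edgeR adjusted p = 1.46e-07). Scara5, a ferritin receptor, had 28.7, 31.9 and 25.5 CPM at ZT13, against 2.36, 0.502 and 8.03 CPM at ZT10 (log2 fold change 2.97 ± 0.56). Cyp2b10, a drug-metabolising cytochrome P450, had 15, 6.54 and 17.4 CPM at ZT13, against 1.83, 1.82 and 0.583 CPM at ZT10 (log2 fold change 3.21 ± 0.70). The 3 genes were low at ZT10 and none had overlapping groups. Pdgfrl, a relative of the PDGF receptor, and the unnamed transcript 1700045H11Rik rose by 3.63 ± 0.71 and 3.62 ± 0.54 on the log2 scale.

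On the lower side Arrdc3, an alpha-arrestin that directs receptors to lysosomes, was the most abundant of the genes named by size and had the largest fall among them. It was read here from a non-coding transcript of the gene. It had 45.2, 24.6 and 35.7 CPM at ZT13, against 246, 220 and 470 CPM at ZT10 (log2 fold change -3.15 ± 0.37, edgeR adjusted p = 1.81e-06). Efna3, an ephrin ligand, had 0.68, 1.39 and 1.3 CPM at ZT13, against 8.12, 9.31 and 10.1 CPM at ZT10 (log2 fold change -3.02 ± 0.44). Chrna4, a nicotinic receptor subunit, Prss8, a membrane serine protease, and Rab36, a small GTPase, fell by 2.36 ± 0.38, 2.26 ± 0.28 and 2.15 ± 0.31 on the log2 scale. The transcripts Gm15408 and E230016M11Rik fell by 2.74 ± 0.33 and 2.43 ± 0.26. Apart from Arrdc3 and Nr1d1, the 10 genes named for the largest falls averaged 9.08 to 20.5 CPM at ZT10.

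The unfed libraries of later hours show which dusk levels lasted. Arntl averaged 1.15 ± 0.21 CPM at ZT10, 4.73 ± 1.51 CPM at ZT13, 14.4 ± 1.48 CPM at ZT14, then 41.3 ± 5.55 CPM at ZT18 and finally 51 ± 1.06 CPM at ZT22 (SD, n = 3 each). Dbp averaged 284 ± 44.9, 87.6 ± 9.34, 48.8 ± 3.79, 12.4 ± 3.74 and 6.57 ± 2.26 CPM at the same hours. Both genes thus kept moving in the same direction after ZT13, through the unfed night.

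Single GR targets differed in their course. Fam107a averaged 0.313 ± 0.12 CPM at ZT10, 17.7 ± 4.48 CPM at ZT13, 27.2 ± 5.13 CPM at ZT14, then 18.8 ± 13.7 CPM at ZT18 and finally 5.44 ± 2.88 CPM at ZT22. Lpin1 averaged 310, 1875, 938, 422 and 139 CPM at these hours, so that ZT13 was its highest unfed group. Angptl4 averaged 101 ± 14.6, 223 ± 28, 229 ± 12.7, 219 ± 61.7 and 192 ± 29.1 CPM, and stayed above its ZT10 level.

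Metabolic genes outside that list were followed over the same hours. Ppp1r3b averaged 83.3 ± 1.31, 469 ± 87.2, 519 ± 50.8, 532 ± 83.2 and 279 ± 42.6 CPM and held its dusk level until ZT18. Sc5d averaged 665 ± 101, 318 ± 26.8, 293 ± 16.7, 202 ± 16.1 and 197 ± 23.2 CPM, and Srebf1 487 ± 43.4, 157 ± 14, 120 ± 4.17, 129 ± 46.5 and 77 ± 25.7 CPM, so neither had returned to its ZT10 level by ZT22.

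**Figure D3:**
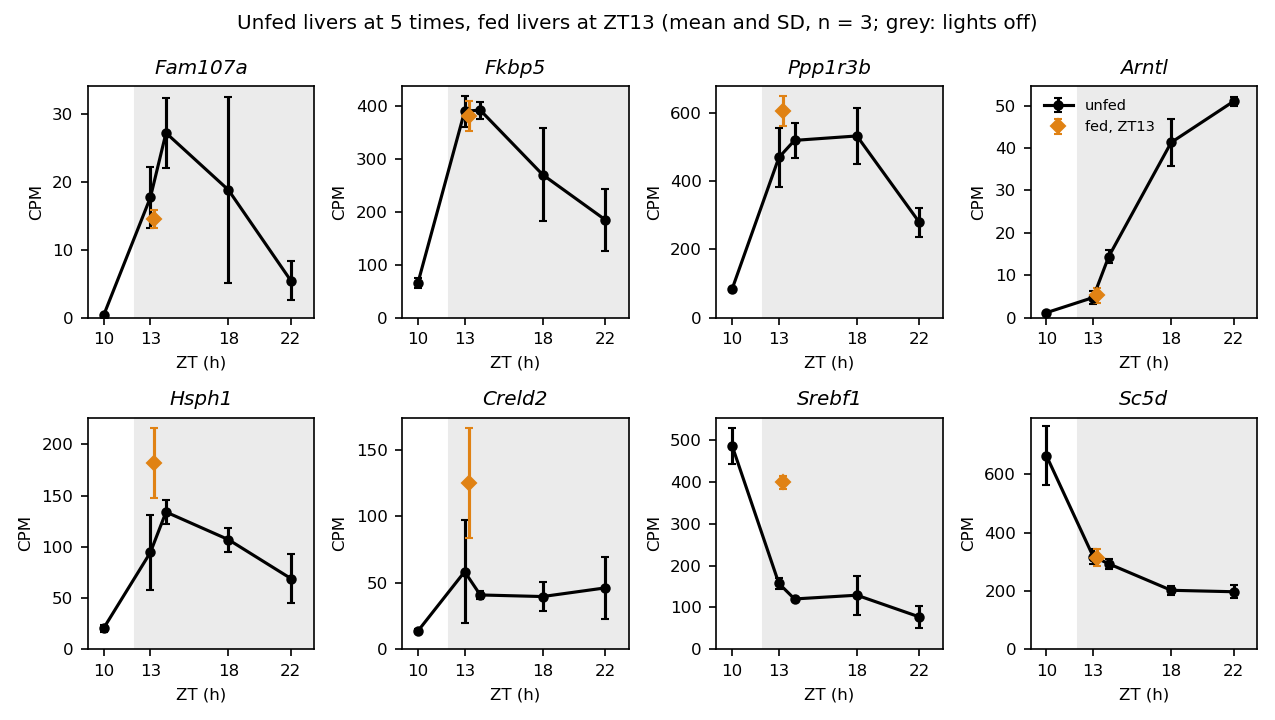
Mean and SD of CPM (n = 3 libraries) for 8 genes by hour (ZT10 to ZT22) without food, with fed livers at ZT13 as an orange diamond drawn slightly to the right of that hour and lights off in grey. Arntl climbs to 51 CPM at ZT22, Fam107a is highest at ZT14 with 27.2 CPM, and the fed diamond of Srebf1 lies at 399 CPM, above the unfed 157 CPM of the same hour.

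Food at ZT13 is set beside the dusk change below. It shares the unfed ZT13 libraries, so the fold changes of dusk and of food are not independent and are given side by side only. Of 14744 genes 162 differed between fed and unfed livers at ZT13 (1.1%), with 69 higher and 93 lower. Without ZT13 unfed replicate 1 the counts were 237 and 197, and without fed replicate 2 they were 18 and 22. They were 34 and 51 without fed replicate 3, 27 and 49 without unfed replicate 2, 25 and 47 without unfed replicate 3, and 59 genes were lower without fed replicate 1.

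Of the 25 GR targets 3 were called lower with food and none higher, against 0.631% and 0.468% of all genes, and the list's median food log2 fold change was -0.60, against -0.01 over all genes. Fkbp5 averaged 381 ± 29 CPM in fed livers and 390 ± 29.4 CPM in unfed livers at ZT13, and Fam107a averaged 14.5 ± 1.35 CPM in fed livers and 17.7 ± 4.48 CPM in unfed livers. Neither difference passed the test (log2 fold changes of food -0.03 and -0.29). Angptl4, a secreted inhibitor of lipoprotein lipase, averaged 111 ± 12.5 CPM in fed livers and 223 ± 28 CPM in unfed livers and did not pass either (edgeR adjusted p = 0.0718), beside a dusk log2 fold change of 1.14. The calls were Igfbp1, Klf9 and Nfkbia, and Igfbp1 had a food log2 fold change of -3.45 ± 0.41 (edgeR adjusted p = 2.66e-05) beside its dusk value of 0.97. Those 3 are among the 5 targets that did not pass the dusk test.

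Some chaperones and Srebf1 differed with food. Hsph1 averaged 182 ± 34.4 CPM in fed livers and 94.5 ± 36.3 CPM in unfed livers at ZT13, with a food log2 fold change of 0.94 (edgeR adjusted p = 0.0465) beside a dusk value of 2.22. Its food call was lost under 7 settings, with adjusted p from 0.053 to 0.296. Bag3, Dnaja1 and Hsp90aa1 also rose with food, so 4 of 22 heat shock genes were called higher, against 0.468% of all genes. The food calls on Dnaja1 and Hsp90aa1 were each lost under 4 settings, with adjusted p from 0.0689 to 0.115 and from 0.0668 to 0.112. Srebf1 averaged 399 ± 15.3 CPM in fed livers and 157 ± 14 CPM in unfed livers, a food log2 fold change of 1.35 ± 0.21 (edgeR adjusted p = 0.00139) beside a dusk value of -1.64. No gene of cholesterol synthesis was called with food, and Sc5d averaged 314 ± 28.6 CPM in fed livers and 318 ± 26.8 CPM in unfed livers.

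The GFP livers at ZT12 and ZT10 offer the nearest hours in other animals, with no library in common. There 598 of 15712 genes differed between ZT12 and ZT10 (3.81%), with 304 higher (1.93%) and 294 lower (1.87%). These counts were 38 and 35 without GFP ZT12 replicate 2, 103 and 115 without GFP ZT10 replicate 3, 122 and 104 without GFP ZT10 replicate 1, and 200 and 140 without GFP ZT12 replicate 1, and 180 genes were higher without GFP ZT10 replicate 2. The interval ended at lights off, the preparation differed, and ribosomal RNA precursor held 4.519 to 24.497% of the counts of GFP ZT12 libraries and 23.83 to 28.185% of those of GFP ZT10 libraries. With the ribosomal RNA precursor share as a covariate, Efna3 was the only one of 23 named genes called in GFP livers that lost its call. The part of the hour and of the preparation in the result was not tested.

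Dusk genes moved the same way in the GFP livers more often than not. Of 1433 genes higher at ZT13 and tested there, 1216 had a GFP log2 fold change above 0 (84.9%), and of 1344 lower genes 1080 had one below 0 (80.4%), while 49.9% of all genes were above 0. The higher genes had a median log2 fold change of 0.52 at dusk and 0.19 in GFP livers, and the lower genes -0.64 and -0.25. In the GFP livers 139 of the higher genes (9.7%) were called higher and 1 lower, and 164 of the lower genes (12.2%) were called lower and none higher.

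**Figure D4:**
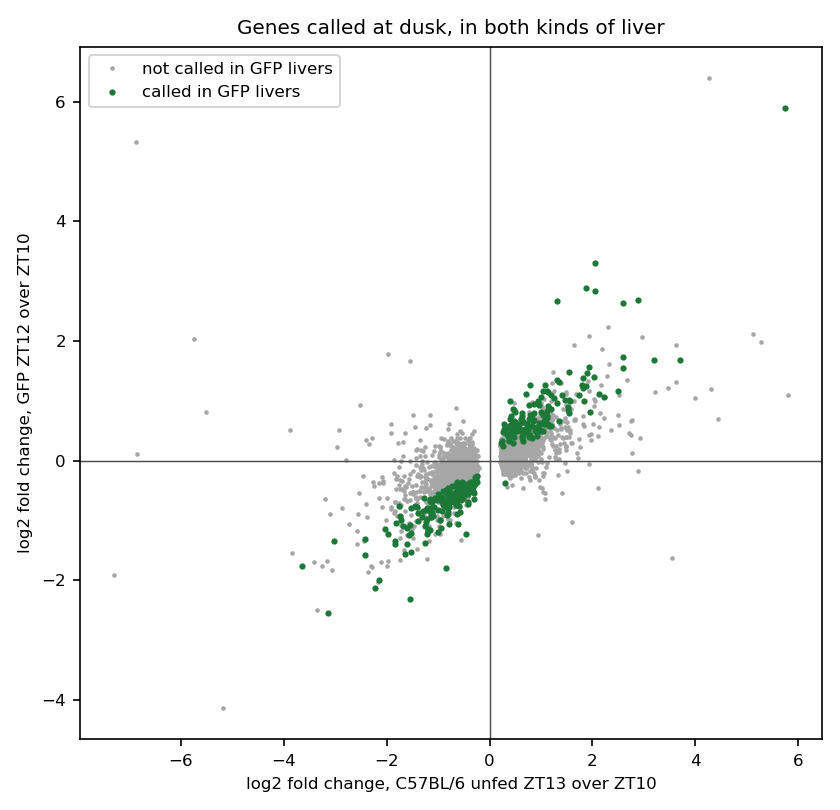
Each point is a gene called at dusk and tested in the GFP livers, with its log2 fold change of ZT13 over ZT10 in unfed C57BL/6 livers on the x axis and of ZT12 over ZT10 in GFP livers on the y axis; green points were also called in GFP livers. Most points lie at the upper right and lower left, 84.9% of the higher and 80.4% of the lower genes, and closer to 0 on the y axis.

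Single genes differed in the size of their GFP change beside their dusk change, between livers that differ in mice, virus, hour and preparation. Fam107a rose by 5.90 on the log2 scale in GFP livers (edgeR adjusted p = 0.00114), beside 5.75 at dusk, and Nr1d1 fell by 1.57 (edgeR adjusted p = 0.00247), beside -2.43. Sc5d fell by 0.63 in GFP livers (edgeR adjusted p = 0.00156), beside -1.06 at dusk. Creld2 and Hspa1b did not pass the test there, with log2 fold changes of 0.42 and 0.47 beside 2.11 and 2.72 at dusk. By list, 11 of 24 GR targets, 1 of 22 heat shock genes, no ER chaperone and 1 of 23 cholesterol genes were called in the GFP livers in their dusk direction, against 1.93% of all genes higher and 1.87% lower. The heat shock call, Hsph1, was lost when any of 4 libraries was left out (adjusted p 0.0834 to 0.163). Among the GR targets Ddit4 was lost without GFP ZT12 replicate 2 (0.0534), Mt2 without any of 3 libraries (0.0575 to 0.179) and Pck1 without any of 4 (0.0562 to 0.126).

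The CRE livers carry the receptor deletion in hepatocytes. The Nr3c1 message averaged 114 ± 11.9 CPM in CRE ZT12 livers and 214 ± 17.6 CPM in GFP ZT12 livers, and 133 ± 16.1 CPM in CRE ZT10 livers and 224 ± 24.1 CPM in GFP ZT10 livers. Lpin1 averaged 114 ± 18.2 CPM at ZT12 and 124 ± 23.6 CPM at ZT10 in CRE livers, against 1936 ± 432 CPM at ZT12 and 663 ± 54.3 CPM at ZT10 in GFP livers. Fkbp5 averaged 67.2 ± 7.44 CPM at ZT12 and 40.6 ± 7.93 CPM at ZT10 in CRE livers, against 379 ± 169 CPM at ZT12 and 114 ± 11.1 CPM at ZT10 in GFP livers. Both genes had lower means in CRE livers at either hour. Ribosomal RNA precursor held 3.623 to 7.379% of the counts of CRE ZT12 libraries and 8.0 to 28.549% of those of CRE ZT10 libraries, without overlap, and its part in the CRE changes was not tested.

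The test of the difference between the changes, CRE minus GFP, called no gene at an adjusted p under 0.05 by edgeR (0%), with 643 of 15712 at an unadjusted p under 0.05 (4.09%). DESeq2 gave 656 (4.18%) and 1 adjusted call, Lpin1 (adjusted p = 0.00202). For Lpin1 the difference was -1.67 ± 0.32, from a log2 fold change of -0.12 in CRE livers and 1.55 in GFP livers. For Fam107a it was -5.41 ± 1.56, from 0.49 in CRE livers and 5.90 in GFP livers, and for Dusp1 -1.50 ± 0.53, from 0.00 in CRE livers and 1.49 in GFP livers. Of 24 targets, 18 had a change above 0 in CRE livers and 22 in GFP livers, and the medians were 0.48 in CRE livers and 0.91 in GFP livers. The CRE change was below the GFP change in 19 of the 24, as it was in 51.3% of all genes. Pck1 was an exception, with 1.22 in CRE livers and 0.94 in GFP livers.

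**Figure D5:**
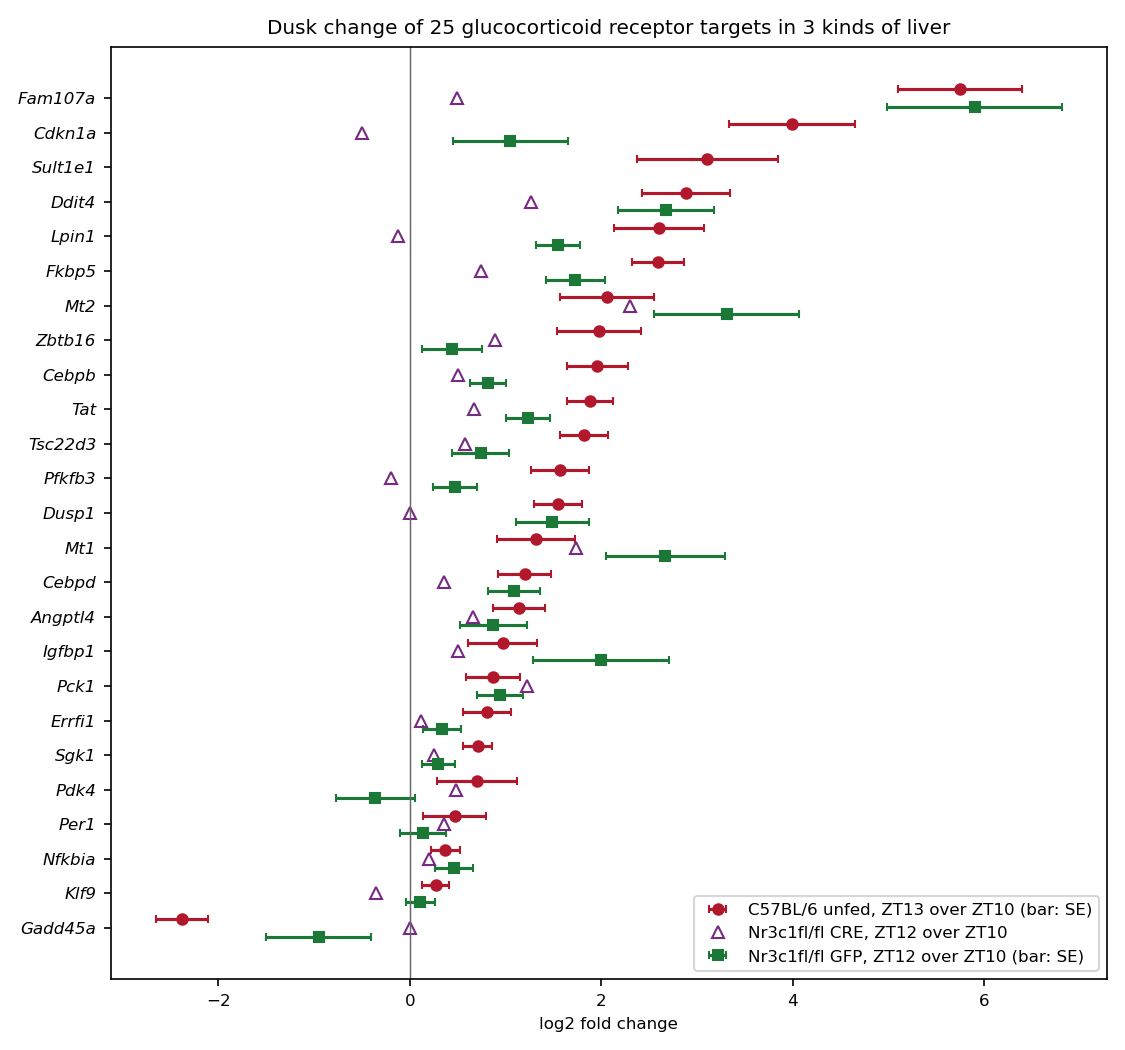
Log2 fold changes of 25 GR targets in C57BL/6 livers across dusk (ZT13 over ZT10), in CRE livers and in GFP livers (ZT12 over ZT10); bars are standard errors, and CRE values carry none. Sult1e1 was not tested in the virus livers and has a dusk value only. Fam107a lies at 5.75 at dusk, 0.49 in CRE livers and 5.90 in GFP livers, and Gadd45a is the target below 0 at dusk with -2.38.

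GR binding at ZT10, before the dusk change, was taken from the authors' peaks that were called against both of their controls. Of 5772 such peaks, at least 1 lay within 25 kb of the gene body for 43.8% of genes higher at ZT13 (629 of 1436), 35.4% of genes lower at ZT13 (476 of 1345) and 29.4% of all genes tested (4339 of 14744). Among genes changed at least 2-fold the shares were 66.1% of the higher (156 of 236) and 33% of the lower (100 of 303). Gene length and level moved with these groups, since median lengths were 28.4, 25.1 and 22.6 kb and median levels 36.1, 17 and 13.7 CPM for higher, lower and all genes. For genes higher at least 2-fold they were 16.9 kb and 20.4 CPM, and for genes lower at least 2-fold 19.6 kb and 3.84 CPM, and the part of length and level in the shares was not tested.

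By list, 21 of 25 GR targets and 14 of 16 gluconeogenic genes had such a peak. Shares were also high in lists with few calls or with more lower than higher genes, namely 14 of 16 acute phase proteins, 15 of 18 genes of insulin signalling and fasting, 12 of 15 bile acid genes and 17 of 21 genes that make fatty acids and triglycerides. Over all genes tested the share was 29.4%. Heat shock chaperones (6 of 22) were near it, and ribosome biogenesis factors (3 of 20) were below it. Tsc22d3 had 8 peaks, Fkbp5 and Tat 4 each and Lpin1 3. Fam107a, Nr1d1 and Arrdc3 had none within 25 kb.

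Markers of liver cell types were checked for the tissue label. The counts of calls below stand beside 9.74% of all genes higher and 9.12% lower. In lists this short, few or no calls are near those shares. The tested hepatocyte markers summed to 96543 to 115885 CPM in the ZT13 livers and 100219 to 100714 CPM in the ZT10 livers, and of 9 genes Hnf4a rose and Fgb fell. No marker of Kupffer cells (11 genes), endothelium (10), lymphoid cells (3), red blood cells (5), pancreas (3) or fat (2) passed the test, and none of the 7 neutrophil markers reached the filter on low counts. Stellate cell markers summed to 204 to 279 CPM at ZT13 and 276 to 325 CPM at ZT10, with Col3a1 and Pdgfrb lower among 10 genes, and Col3a1 had 24.4, 21.4 and 20.5 CPM at ZT13, against 56.3, 51.6 and 46 CPM at ZT10. Bile duct markers summed to 26.7 to 35.2 CPM at ZT13 and 35.8 to 37.8 CPM at ZT10 with 1 lower call among 6 genes. Their part in other results was not tested, and in tissue RNA fewer cells of a type and less RNA per cell cannot be told apart.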

How the data were processed

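Whole-liver RNA was sequenced, and the authors deposited raw read counts per RefSeq transcript row. STAR, HOMER and DESeq2, with the builds mm10 and rn5, are named without versions in the submitters' processing notes, and the sources used here name neither the counting tool nor its strand setting. Of 40458 rows, 40219 matched a gene in RefSeq's table (GRCm38.p6), and of the 24790 genes 7581 had several rows, from which the row with most counts over all libraries was used. Reads shared by overlapping or antisense genes cannot be told apart. A row for ribosomal RNA precursor (NR_046233) matched no gene there and stayed out of library sizes and tests. From 76.5 to 84.6% of counts between 1 and 10 were even in the 6 libraries, so halved counts were tried as an alternative.

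Genes passing filterByExpr were tested with edgeR 4.0.16 in R 4.3.3 (TMM scaling, quasi-likelihood F-test, Benjamini-Hochberg adjustment, threshold 0.05), with all groups of an experiment in a single fit. DESeq2 1.42.0 was an alternative. The standard error is the size of the log2 fold change over the square root of F. Peaks are intervals that the authors deposited, used by position only.

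The members and lists were chosen with earlier results of these data known. Lists share genes, among them Tat, Got1, Pck1, Ddit4, Angptl4, Lpin1 and Atf3, so the counts of different lists are not independent. Named were 19 fixed genes, up to 3 genes of each of 21 lists with the smallest p, and the 10 largest changes in each direction with at least 5 CPM on average and separate groups. Other genes in the text were chosen after their values were seen. A few genes that enter the counts are not reported here by name.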

Additional observations from a re-analysis of the deposited data

How the results depend on the processing

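The dusk comparison was refitted under 16 alternatives. The higher genes numbered 952 to 1345 and the lower genes 850 to 1256 when each of the 6 libraries was left out in turn, and the lowest counts came without ZT10 replicate 2, where 1754 of the 2781 genes (63.1%) were called again. DESeq2 called 1600 higher and 1464 lower, and shared 2778 genes with edgeR. The replicate block gave 1462 and 1365. Same-numbered livers did not deviate together (correlations of -0.142 to -0.001, and -0.09 to 0.11 for other pairs), so the numbers were not taken as pairs. With a replicate block the food counts were 74 and 109, the GFP counts 320 and 312, and the interaction 0. Of 80 named dusk genes, 76 were called, and of 1279 alternative values 1231 kept direction and side of the threshold, 39 lost the call (11 genes), 4 gained it (Igfbp1) and 5 changed sign. Those were Npas2 (-0.16 without ZT13 replicate 2, in a range of -0.16 to 1.61 with a library left out) and Nr3c1 (-0.01 with upper-quartile factors, without ZT13 replicate 2, and without both libraries of high NR_046233 share, and -0.02 without ZT13 replicate 3, in a range of -0.02 to 0.12 with a library left out), neither of them called. The cause of these shifts was not tested.

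At ZT13 the food counts were 171 higher and 181 lower with DESeq2, 32 and 60 with the NR_046233 share as a covariate, and 37 and 58 with only the groups compared, and 18 to 237 and 22 to 197 with a library left out. The GFP counts were 477 and 468 with DESeq2, and 38 to 234 and 35 to 217 with a library left out. For the interaction, DESeq2 called 1 lower gene, and 0 were called with any library left out. The covariate in the C57BL/6 fits and the omission of both libraries of high NR_046233 share were chosen after seeing the data. With 3 libraries a group, low genes such as Fam107a, Efna3 and Npas2 rest on few counts at their lower level.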

Other observations

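Some of the genes with the smallest p-values at dusk belonged to none of the lists, and the ones given here were chosen after their values were seen. Slc25a51, the carrier that brings NAD into mitochondria, had 306, 303 and 269 CPM in the ZT13 livers, against 105, 92.7 and 81.7 CPM in the ZT10 livers (log2 fold change 1.65 ± 0.12, edgeR adjusted p = 2.83e-09). Gde1, a glycerophosphodiester phosphodiesterase, had 135, 146 and 122 CPM at ZT13, against 55.9, 60.7 and 52.1 CPM at ZT10 (log2 fold change 1.26 ± 0.08, edgeR adjusted p = 2.52e-10), and its GFP log2 fold change was 1.04. Shb, an adaptor of receptor tyrosine kinases, had 198, 167 and 135 CPM at ZT13, against 66.8, 54.9 and 57.1 CPM at ZT10. The groups of all 3 genes were apart.

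Growth factor Fgf1 had 250, 224 and 237 CPM at ZT13, against 118, 108 and 106 CPM at ZT10 (log2 fold change 1.10 ± 0.10, edgeR adjusted p = 2.80e-08). Skil, a repressor of SMAD signalling, had 29.9, 33.7 and 29.8 CPM at ZT13, against 10.5, 11 and 11.7 CPM at ZT10, and averaged 33, 36.2 and 38.1 CPM at ZT14, ZT18 and ZT22. On the lower side Gnat1, known as the transducin subunit of rods, had 12.8, 18.3 and 18.9 CPM at ZT13, against 54.2, 56 and 65.9 CPM at ZT10 (log2 fold change -1.82 ± 0.14, edgeR adjusted p = 2.83e-09). Tbcel, a tubulin-binding cofactor relative, had 70.8, 87.5 and 91.9 CPM at ZT13, against 195, 201 and 219 CPM at ZT10, and stayed at 67.7 to 77.6 CPM on average from ZT14 to ZT22. No gene of these 7 was called with food at ZT13.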
